A study of Homo sapiens with 11 samples.

Results

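Alternative 3′ splice site events in HCC78 cells were examined where 1 donor is joined to either of a pair of acceptors that lie more than 50 nt apart, here called far pairs. The deposited table of alternative 3′ splice sites reduces to 11868 unique entries, of which 10756 name exactly 2 junctions and 1112 name more. In all 10756, the junctions share the donor. Acceptors were more than 50 nt apart in 4251 of these entries, and 614 of them were left out because they had fewer than 10 supporting reads in S34F or in wild-type. The remaining 3637 entries are the far pairs. The 5789 entries with enough reads and acceptors 1 to 50 nt apart (near pairs) were used for comparison.

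HCC78 is an established lung adenocarcinoma cell line with a ROS1 fusion and an S34F allele of U2AF1 of its own. Stable subclones carried FLAG-HA-tagged wild-type or S34F mutant U2AF1 in a lentiviral vector induced by doxycycline. RNA-Seq was performed on 9 libraries, namely 2 replicates each of wild-type transduced cells with doxycycline (WT dox+), S34F transduced cells with doxycycline (S34F dox+), wild-type transduced cells without it (WT dox-) and parental cells, and 1 library of S34F transduced cells without it (S34F dox-). The labels put the parental cells without doxycycline, whereas a heading in the study's supplementary material puts them with it, and they carry no construct to induce. By the sample labels, mutant transcript made up 62% and 65% of U2AF1 mRNA in S34F dox+, 12% and 14% in WT dox+, 33% in each WT dox- library, 28% in S34F dox- and 32% in each parental library, so every group contained some mutant transcript. FPKM of U2AF1, wild-type and mutant together, was 164 and 223 in S34F dox+ and 278 and 299 in WT dox+, against 103 to 115 in the other 5 libraries.

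U2AF1 is the smaller subunit of the factor that recognizes the AG dinucleotide at the end of an intron, and its S34F change lies in a zinc finger and is known to alter which base before the AG is preferred. Where a pair of acceptors competes for a donor, the proximal acceptor gives the shorter intron. If both acceptors open the same exon, it keeps the segment between them in the exon, whereas the distal acceptor removes that segment with the intron. If the proximal acceptor opens a separate exon, the segment need not be kept whole. Junction names alone do not tell these cases apart. Depending on the length and place of the segment, the choice can insert or remove codons, shift the reading frame or change an untranslated region.

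The authors ran MISO on S34F and wild-type transduced cells, which gives each event a percent spliced in (PSI) per condition and a Bayes factor in favor of a difference. The table holds a single comparison without values per replicate, so PSI carries no SD here and no test between samples was possible. The first side was read as S34F and the second as wild-type. Both were taken to be the dox+ libraries, though the libraries behind each side are not named. Over 1637 host genes with at least 200 reads on each side, the ratio of event reads between the sides rose with the ratio of mean FPKM, S34F dox+ over WT dox+ (Spearman rho = 0.596, a description across genes, which share libraries and depth). Reads on the S34F side were fewer, with a median ratio of 0.693 over the far pairs. Median reads per far pair were 260 in S34F and 382 in wild-type, with a range from 10 to 111755 in S34F and to 152601 in wild-type.

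The table does not say which acceptor PSI refers to, and this was settled from the data. For 123 far pairs with at least 200 wild-type reads in each table, the same junctions also appear as a skipped exon entry, in which inclusion of the exon uses the proximal acceptor and skipping uses the distal one. Wild-type PSI of the pair ran against exon inclusion (Spearman rho = -0.713 over 123 pairs, which share reads between the tables). Of 77 pairs with a PSI below 0.2 or above 0.8 in both tables, 69 were on opposite sides and 8 on the same side. Each acceptor of a far pair could also be set against the same further acceptor, in 376 combinations, where a pair can enter more than once. Over these, PSI also ran against the log odds of the proximal site (Spearman rho = -0.781). For RPS24, a ribosomal protein gene, the far pair of 2765 nt was listed at a PSI of 0.99 from 8291 wild-type reads, and inclusion through its proximal junction was listed at 0.01. PSI is therefore read here as the share of the distal acceptor. These checks used far pairs only, so for near pairs this reading is assumed.

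**Figure D1:**
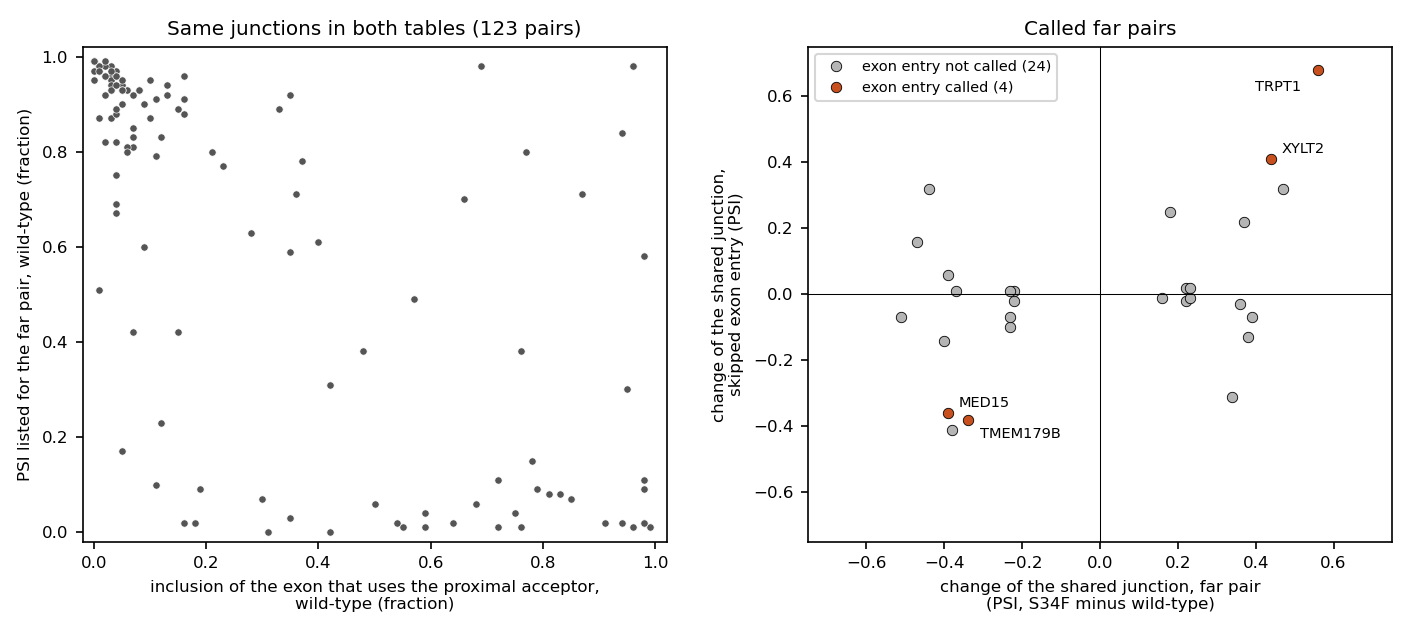
Left, wild-type PSI listed for 123 far pairs against wild-type inclusion of the exon that uses the proximal acceptor (fractions, 1 point per pair), with most pairs in the upper left or lower right. Right, change in PSI (S34F minus wild-type) of a junction shared by a called far pair and a skipped exon entry, as seen in the far pair (x axis) and in the exon entry (y axis), 1 point for each of 28 entries. All 4 called exon entries lie in the lower left or upper right, whereas the uncalled entries lie in every quadrant.

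In most far pairs the acceptors were a short step apart. The median distance between acceptors was 101 nt, the quartiles were 69 and 180 nt, and the longest was 11575 nt. The distance was a multiple of 3 in 40.5% of far pairs and in 34% of near pairs. A protein-coding gene was listed for 3499 of the 3637 far pairs. The pairs fall under 2949 host gene labels, of which 2382 have a single pair, and CPSF3L, a subunit of the Integrator complex, has the most with 5.

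The proximal acceptor was the more used in most far pairs. Median PSI of the distal acceptor was 0.39 in wild-type (quartiles 0.09 and 0.81) and 0.41 in S34F (quartiles 0.11 and 0.78). In wild-type, 986 pairs were at or under 0.10, 643 were at or over 0.90 and 2008 (55.2%) lay between. In S34F, 2179 pairs (59.9%) lay between. The S34F value was nearer to 0.50 than the wild-type value in 1879 pairs and farther from it in 1345, and fewer reads stood behind the S34F values. Distal use varied with distance in wild-type cells. Its median was 0.14 for acceptors 1 to 12 nt apart, 0.64 for 13 to 25 nt and 0.49 for 26 to 50 nt, and among far pairs it was 0.36 for 51 to 100 nt, 0.46 for 101 to 200 nt, 0.42 for 201 to 500 nt, 0.35 for 501 to 1000 nt and 0.28 above 1000 nt. The proximal acceptor thus led in every far class and most clearly above 1000 nt. S34F medians were within 0.05 of these values in each class.

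**Figure D2:**
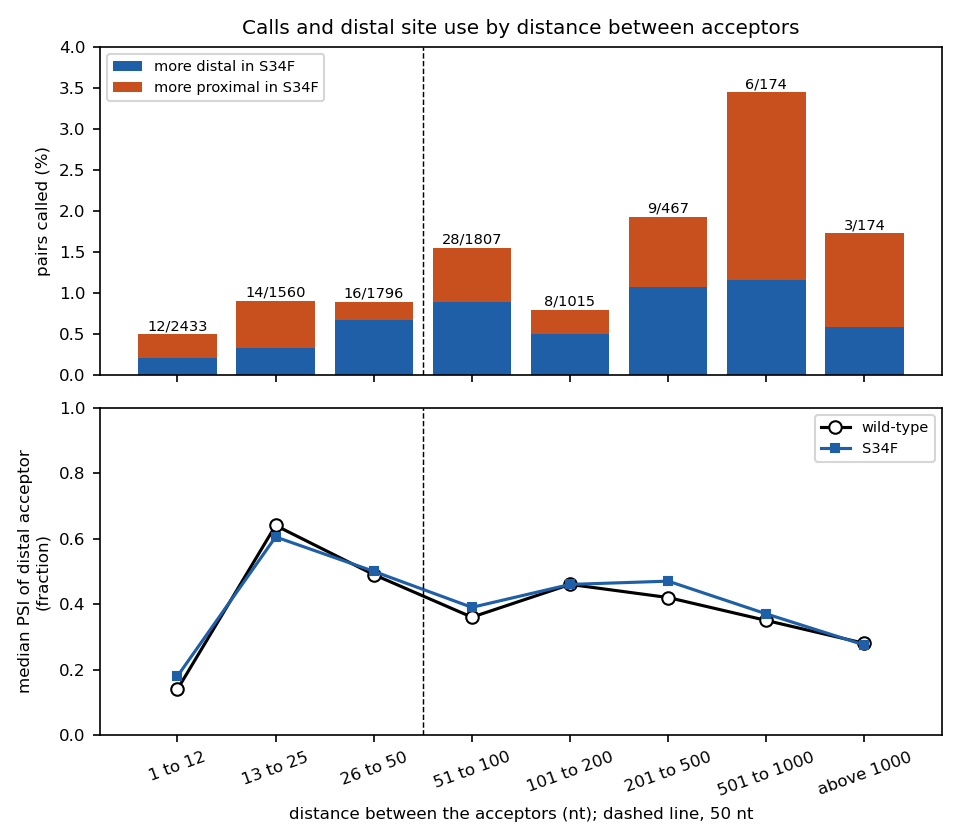
Top, percent of pairs called (both thresholds passed), by distance between the acceptors in nt, stacked by direction, with called and total pairs above each bar. Bottom, median PSI of the distal acceptor in wild-type and S34F. Far pairs are to the right of the dashed line, and the highest bar is 6 of 174 pairs at 501 to 1000 nt.

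The selection of acceptors in S34F cells largely followed that in wild-type cells. Across the 3637 far pairs the Pearson correlation of PSI between the sides was 0.934, as a description of pairs that share libraries. It was 0.988 over the 692 pairs with at least 1000 reads on each side and 0.681 over the 721 pairs with fewer than 50 reads on the smaller side. The median difference in PSI was 0, with 1614 pairs more distal in S34F, 1615 more proximal and 408 equal. The 0.05 and 0.95 quantiles of the difference were -0.22 and 0.22. Differences of at least 0.10 were listed for 1077 pairs (29.6%), of which 567 were toward the distal and 510 toward the proximal acceptor. Among the pairs with at least 1000 reads on each side, 59 of 692 differed by as much and 460 (66.5%) differed by at most 0.02.

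A pair was called where PSI differed by 0.10 or more and the Bayes factor reached 5, which are the study's thresholds, and 54 of the 3637 far pairs (1.48%) were called, in genes under 53 labels. Use of the distal acceptor was greater in S34F in 29 pairs (0.797%) and use of the proximal acceptor was greater in 25 (0.687%). At the same thresholds, 42 of 5789 near pairs (0.726%) were called, 22 toward the distal (0.38%) and 20 toward the proximal acceptor (0.345%). The shares were 1.1% of 10428 alternative 5′ events, 0.31% of 13886 NAGNAG events, 2.73% of 5134 retained introns and 1.47% of 39192 skipped exons. Events of a gene share reads, so these shares are given without a test. The share of far pairs called was 1.55% at 51 to 100 nt (28 of 1807), 0.788% at 101 to 200 nt (8 of 1015), 1.93% at 201 to 500 nt (9 of 467), 3.45% at 501 to 1000 nt (6 of 174) and 1.72% above 1000 nt (3 of 174). The last classes rest on few pairs, and the share did not move in 1 direction with distance.

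**Figure D3:**
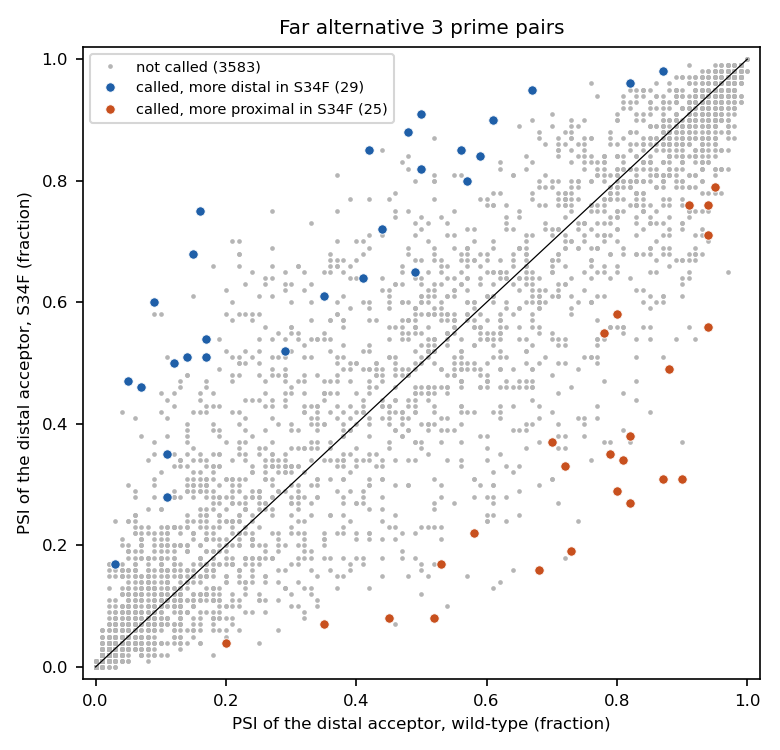
PSI of the distal acceptor in S34F against wild-type (fractions) for the 3637 far pairs, with the line of equal values. Called pairs are colored by direction, 29 more distal and 25 more proximal in S34F, and many pairs that were not called lie as far from the line.

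Calls depended on reads as well as on the size of the difference. The smaller side of a called pair had a median of 368 reads, against 93 reads for the 1023 pairs with a difference of at least 0.10 that were not called. Of those 1023 pairs, 413 had a Bayes factor of at least 1 and 43 had one from 3 to under 5. A call was made for 1 of 721 pairs with 10 to 49 reads on the smaller side, 19 of 857 with 50 to 199, 24 of 1367 with 200 to 999 and 10 of 692 with 1000 or more. The call in the lowest class was TRPT1, a tRNA 2′-phosphotransferase gene, with 15 reads on each side. Calls were also less frequent where a single acceptor dominated. They made up 0.406% of pairs with a wild-type PSI at or under 0.10, 1.86% from 0.11 to 0.50, 2.58% from 0.51 to 0.89 and 0.933% at or over 0.90.

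Another 9 far pairs had a Bayes factor of at least 5 with a difference under 0.10, which is outside the call, and they were noted after their values were seen. They were 3 pairs more distal and 6 more proximal in S34F. KRT7, an epithelial keratin, was at 0.01 in S34F (44564 reads) and 0.02 in wild-type (64128 reads). GNB2L1, which encodes the ribosome-associated scaffold RACK1, had 0.01 and 0.04, and RPS9 had 0.97 and 0.95. The largest differences in this set were 0.08 in WDR61 and PTMS and -0.09 in NT5DC2.

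The minor acceptor of wild-type cells gained use in 41 of the 54 called pairs (75.9%), while the major acceptor gained in 11 and the wild-type PSI was 0.50 in 2. This was close to the 73.2% of the 1077 far pairs that differed by at least 0.10, called or not. A pair near 0 or 1 can move that far in 1 direction only, so the selection itself favors such changes. In 28 pairs the major acceptor differed between S34F and wild-type, in 13 of the 29 distal calls and 15 of the 25 proximal calls. Proximal calls had a median PSI of 0.8 in wild-type and 0.33 in S34F, and distal calls 0.41 and 0.68. Median distance was 124 nt for proximal and 95 nt for distal calls. The distance between the acceptors was a multiple of 3 in 20 of the 54 called pairs (37%), 10 in each direction. The intron to the proximal acceptor had a median length of 1460 nt in called pairs and 1157 nt in all far pairs.

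**Figure D4:**
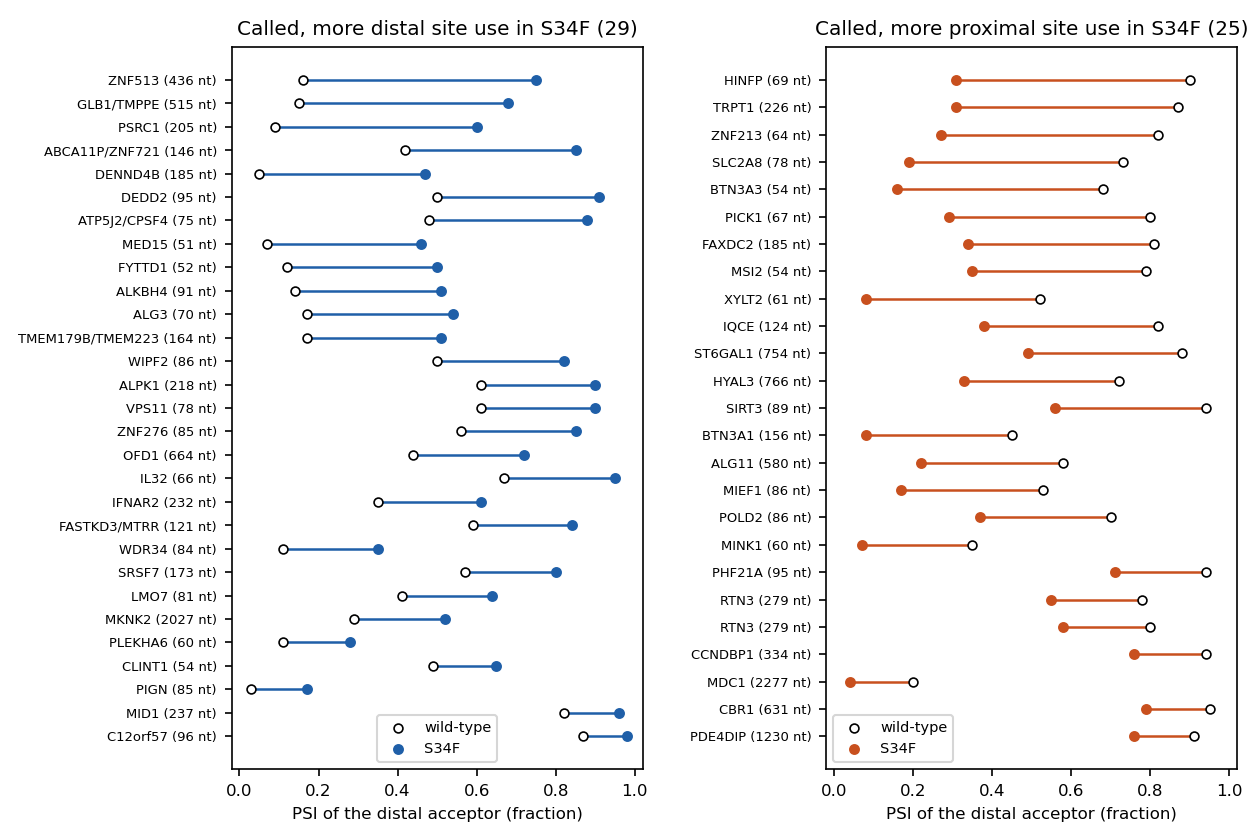
PSI of the distal acceptor (fraction) in wild-type (open circles) and S34F (filled circles) for the 54 called far pairs, labeled by host gene and distance. Pairs are split by direction and sorted by the size of the difference, which runs from 0.59 in ZNF513 and HINFP down to 0.11 in C12orf57.

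The largest shift toward the distal acceptor was in ZNF513, a zinc finger transcription factor gene. Its PSI was 0.16 in wild-type and 0.75 in S34F, from 131 and 106 reads, a difference of 0.59 with a Bayes factor of 14531714. The donor is at position 27602960 of chromosome 2 on the minus strand, and the acceptors at 27601921 and 27601485 are 436 nt apart. The major acceptor of ZNF513 therefore differed between the conditions.

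The next was the pair listed under both GLB1, the lysosomal beta-galactosidase gene, and TMPPE, with a PSI of 0.15 in wild-type and 0.68 in S34F across 515 nt (Bayes factor 36.61, 214 and 155 reads). PSRC1, which encodes a microtubule-associated protein of the mitotic spindle, came after these in the same direction. Its PSI was 0.09 in wild-type and 0.6 in S34F, from 374 and 204 reads, with a Bayes factor of 62239. A skipped exon entry of the same junctions, given below, did not show a shift of this size. The pair lies on chromosome 1 on the minus strand, with the donor at 109824241 and acceptors at 109823873 and 109823668, 205 nt apart.

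Other large shifts toward the distal acceptor started from low wild-type use. DENND4B, which encodes an activator of Rab GTPases, went from 0.05 in wild-type to 0.47 in S34F (583 and 480 reads). MED15, a Mediator subunit gene, went from 0.07 to 0.46 with 2089 and 1574 reads. FYTTD1, which encodes an mRNA export adaptor, went from 0.12 to 0.5, ALKBH4 from 0.14 to 0.51, ALG3, a mannosyltransferase of N-glycan assembly, from 0.17 to 0.54, and the pair listed under TMEM179B and TMEM223 from 0.17 to 0.51. In these 6 pairs S34F cells used the acceptors at about equal rates. DEDD2 (0.5 to 0.91), the pair listed under ABCA11P and ZNF721 (0.42 to 0.85) and the pair listed under CPSF4, ATP5J2 and ATP5J2-PTCD1 (0.48 to 0.88) started from mixed use and were mostly distal in S34F.

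The remaining 17 distal calls had differences from 0.11 to 0.32. They include WIPF2, ZNF276, VPS11, ALPK1, OFD1, IFNAR2, the pair listed under FASTKD3 and MTRR, WDR34, LMO7, PLEKHA6, CLINT1, MID1, PIGN and C12orf57, besides IL32, MKNK2 and SRSF7, which are described below. C12orf57 had the smallest difference, 0.87 in wild-type and 0.98 in S34F, with a Bayes factor of 245.36 from 203 and 91 reads.

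The largest shift toward the proximal acceptor was in HINFP, which encodes a transcription factor of histone H4 genes. Its PSI was 0.9 in wild-type and 0.31 in S34F, from 232 and 142 reads, with a Bayes factor of 22.7. The donor is at 118997835 of chromosome 11 on the plus strand and the acceptors at 119001366 and 119001435 are 69 nt apart. Distal use of HINFP, almost complete in wild-type, was thus the minor form in S34F.

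The major acceptor changed from distal to proximal in 15 of the 25 proximal calls, including HINFP and the next 7 described here. TRPT1 had a PSI of 0.87 in wild-type and 0.31 in S34F. ZNF213 had 0.82 and 0.27, SLC2A8, a glucose transporter gene, 0.73 and 0.19, PICK1, which encodes a PDZ and BAR domain protein, 0.8 and 0.29, and FAXDC2 0.81 and 0.34. IQCE had 0.82 and 0.38, and MSI2, which encodes the RNA-binding protein Musashi-2, 0.79 and 0.35. Reads on the smaller side were from 15 in TRPT1 to 498 in MSI2, and Bayes factors were from 5.37 in MSI2 to 11.69 in TRPT1.

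The butyrophilin genes BTN3A3 and BTN3A1, close paralogs that act in the activation of gamma-delta T cells, were both called toward the proximal acceptor. BTN3A3 had a PSI of 0.68 in wild-type and 0.16 in S34F across 54 nt (601 and 398 reads), and BTN3A1 0.45 and 0.08 across 156 nt (600 and 471 reads). Their reads can be split between the paralogs, so these values are uncertain. XYLT2, a xylosyltransferase of proteoglycan synthesis, had 0.52 and 0.08, ST6GAL1, a sialyltransferase, 0.88 and 0.49, and HYAL3, of the hyaluronidase family, 0.72 and 0.33. Of the 25 proximal calls, the remaining ones besides MDC1, RTN3 and PDE4DIP were SIRT3, ALG11, MIEF1, POLD2, MINK1, PHF21A, CCNDBP1 and CBR1, with differences from -0.38 to -0.16.

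The longest called steps were over 1000 nt. MDC1, a mediator of the DNA damage checkpoint, had a PSI of 0.2 in wild-type and 0.04 in S34F across 2277 nt, from 1999 and 1346 reads (Bayes factor 32.96). Its acceptors are at 30673875 and 30671598 of chromosome 6 on the minus strand, and 2277 is a multiple of 3. Whether the proximal site keeps that whole stretch in the mRNA was not examined. MKNK2, a kinase downstream of MAPK signaling with known isoforms that differ at the C-terminal end, had 0.29 and 0.52 across 2027 nt, from 1243 and 850 reads, with a Bayes factor of 183249129. Its donor is at 2040133 of chromosome 19 on the minus strand and its acceptors are at 2039855 and 2037828. PDE4DIP, which encodes myomegalin of the Golgi and centrosome, had 0.91 and 0.76 across 1230 nt (1275 and 925 reads, Bayes factor 33373726). The 3 pairs did not move in 1 direction.

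SRSF7 encodes an SR protein, a class of splicing regulators, and is known for an exon that exposes its own mRNA to nonsense-mediated decay. PSI of its far pair was 0.57 in wild-type and 0.8 in S34F, from 2218 and 1373 reads (Bayes factor 57.78). The acceptors are at 38976488 and 38976315 of chromosome 2 on the minus strand, 173 nt apart and not a multiple of 3. A skipped exon entry through the proximal junction had an inclusion of 0.12 in wild-type and 0.05 in S34F (Bayes factor 273.85), which is below the threshold on the difference. Less use of the proximal acceptor was therefore listed in both tables, which share reads at that junction.

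IL32 encodes a cytokine. PSI of its far pair was 0.67 in wild-type and 0.95 in S34F, a difference of 0.28 with a Bayes factor of 6.57. The donor is at 3115827 of chromosome 16 on the plus strand and the acceptors at 3117378 and 3117444 are 66 nt apart. IL32 was the single called pair with more reads in S34F (472) than in wild-type (300), a ratio of 1.57, or 2.27 relative to the median ratio of far pairs. The median ratio among called pairs was 0.686.

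Pairs on either side of the distance limit are given as a description, the 5 with the largest Bayes factors on each side. Just inside, the pairs with the largest Bayes factors were MED15 at 51 nt, BTN3A3, CLINT1 and MSI2 at 54 nt and FYTTD1 at 52 nt, all called, with differences of 0.39, -0.52, 0.16, -0.44 and 0.38 in that order. Just outside, another pair of MED15 at 48 nt had a PSI of 0.08 in wild-type and 0.43 in S34F (Bayes factor 56.85) and was called. The next outside were STAT3 at 50 nt (difference -0.09), IGSF9 at 48 nt (-0.37), FBF1 at 50 nt (-0.28) and EFEMP2 at 46 nt (-0.48), none of them past both thresholds.

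The same acceptors could be reached from more than 1 donor, which gives a second reading of the choice from partly the same reads. There were 3524 distinct acceptor pairs, and 101 of them had more than 1 donor. The range of the difference in PSI between donors had a median of 0.05 and was under 0.10 in 71 of the 101. For RTN3, a reticulon of the endoplasmic reticulum, the acceptors at 63486174 and 63486453 of chromosome 11 were called from both donors. PSI was 0.8 in wild-type and 0.58 in S34F through the donor at 63449250, and 0.78 and 0.55 through the donor at 63472379. Reads in S34F were 2509 and 2505, so they may be largely the same reads. In skipped exon entries from the donor at 63472379, inclusion through the proximal junction was 0.1 in wild-type and 0.12 in S34F (Bayes factor 0.23). Through the distal junction it was 0.1 and 0.11 (Bayes factor 0.03). These entries did not show a shift of that size, so the size of the RTN3 shift is uncertain. For the pair under ABCA11P and ZNF721, the donor at 429559 of chromosome 4 gave 0.42 and 0.85, and the donor at 466364 gave 0.37 and 0.75 with a Bayes factor of 2.59, short of a call.

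Genes could also contain far pairs that were not called. Of the labels with a call, 16 had more than 1 far pair, with 20 uncalled pairs that differed by a median of 0.055 in absolute value, and 8 of them by at least 0.10.

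Junctions of far pairs also appear in the skipped exon table, which was used as a further reading of the same reads. For 16 called far pairs there were 28 skipped exon entries that name the proximal junction, the distal junction or both. In 14 of these entries inclusion differed by at least 0.10, and in 10 of the 14 the shared junction changed in the same direction as in the far pair. The other entries, with smaller differences, went either way, so the 28 entries as a whole were mixed in direction. The 4 entries past both thresholds all changed in the same direction as the far pair. TRPT1 had an exon skipped through the proximal junction with an inclusion of 0.77 in wild-type and 0.09 in S34F (Bayes factor 4544). XYLT2 had an exon joined through the proximal junction with 0.38 and 0.79. The corresponding exons were at 0.6 and 0.24 in MED15 and at 0.8 and 0.42 in TMEM179B, which had more distal use in S34F. The 4 entries that went the other way were in FAXDC2, XYLT2 and TMEM179B through the distal junction and in SIRT3 through the proximal one, with inclusion differing by 0.16, 0.32, -0.31 and -0.13 and Bayes factors from 0.38 to 1.96. In XYLT2 inclusion thus rose through both junctions, and in TMEM179B it fell through both. An entry that names only 1 junction of a pair does not measure the choice between its acceptors.

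For 212 far pairs, with a median distance of 413 nt, a skipped exon entry names the very same pair of junctions. Of these, 2 (0.943%) were called, in PSRC1 and CCNDBP1, against 52 of the other 3425 (1.52%). In CCNDBP1 inclusion was 0.13 in wild-type and 0.38 in S34F (Bayes factor 4.17), alongside the gain of the proximal acceptor in the far pair (PSI 0.94 and 0.76). In PSRC1 exon inclusion was 0.98 in wild-type and 0.91 in S34F (Bayes factor 0.18), whereas the far pair's distal share was 0.09 and 0.6. In wild-type both entries put the proximal acceptor first. In S34F they disagree on which acceptor was used more, so the size of the PSRC1 shift is uncertain.

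Far pairs of genes with known roles were counted by list. Of 51 far pairs in splicing factor genes, 1 was called (1.96%), that of SRSF7. Of 18 pairs in genes of the epithelial-mesenchymal transition, 1 was called (5.56%), that of IL32. Of 22 pairs in DNA damage response and repair genes, 1 was called (4.55%), that of MDC1. There were 0 calls among 6 pairs in nonsense-mediated decay and exon junction genes and 0 among 17 in mitotic cell cycle genes, a list without PSRC1. With 0 or 1 call per list, the lists cannot be told from the 1.48% of all far pairs. The median difference in PSI lay between -0.01 and 0.01 for each list and was 0 over all far pairs.

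Expression of the host genes was read from a limma-trend fit of log2(FPKM + 1) over 15179 genes in all 9 libraries, with Benjamini-Hochberg adjustment. The labels do not say whether replicates came from separate cultures, so p-values measure the spread between these libraries. At an adjusted p under 0.05, 8 genes (0.0527%) differed between S34F dox+ and WT dox+, 3 of them higher (0.0198%) and 5 lower (0.0329%) in S34F dox+, and 1029 had an unadjusted p under 0.05. All 59 host genes listed for called far pairs, each gene of a shared label included, were tested, and 1 of them passed, IL32. Of the other 58, 1 had an unadjusted p under 0.05 (PSRC1), and the log2 fold changes were between -0.47 and 0.5. Over the 59 genes, 39 log2 fold changes were above 0 and 20 below, with a median of 0.079 against 0.029 over all genes, and with TPM in place of FPKM 25 were above and 34 below. The median was 0.116 for hosts of distal calls and 0.019 for hosts of proximal calls. Among the gene lists, 0 of 130 splicing factor genes passed the limma test (6 at an unadjusted p under 0.05), 0 of 24 in nonsense-mediated decay (1 unadjusted), 0 of 75 in DNA repair (6) and 0 of 68 in the cell cycle (6), while 1 of 67 in epithelial-mesenchymal transition was higher, again IL32. That list had 18 genes at an unadjusted p under 0.05, a larger share than the 1029 of 15179 over all genes. Its log2 fold changes were above 0 in 47 genes and below in 20, with a median of 0.109. Other lists were uneven as well, with 42 above and 88 below for splicing factors and 23 and 45 for the cell cycle. The split was 9 and 15 for nonsense-mediated decay, 34 and 41 for DNA repair and 8342 and 6774 over all genes. The lists were not recomputed with TPM or compared without doxycycline, and subclone and construct cannot be told apart for them.

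FPKM of IL32 was 108 and 106 in S34F dox+ and 44.3 and 48.6 in WT dox+. It was 107 in S34F dox-, 45.3 and 49.4 in WT dox-, and 28.6 and 35.3 in parental cells. All 3 S34F libraries, with or without doxycycline, lay above the other 6. On the log2(FPKM + 1) scale IL32 was higher by 1.19 in S34F dox+ than in WT dox+ (standard error 0.13, limma adjusted p = 0.0431). Without doxycycline the same difference was 1.16 (limma adjusted p = 0.131), from 1 S34F library. The doxycycline responses of the lines differed by 0.03 for IL32 (limma adjusted p = 1), a test that 4 of 15179 genes passed (0.0264%). Subclone and construct cannot be told apart here. The call of IL32 held in 2 of 11 alternatives, with adjusted p from 0.0313 to 0.267 and a log2 fold change from 1.07 to 1.25. It was lost when any one of the dox+ libraries was left out (adjusted p from 0.18 to 0.267). The splicing table holds a single comparison, taken to be with doxycycline, so the PSI of IL32 before induction was not analysed here.

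Host genes with the largest shifts in acceptor use showed no expression difference past the test. PSRC1 was at 9.89 and 13.6 FPKM in S34F dox+ and at 15.8 and 17.2 in WT dox+, without overlap (log2 fold change -0.47, standard error 0.179, adjusted p = 0.688 from limma). It was at 19.5 in S34F dox-, 18.8 and 20.5 in WT dox- and 11.2 and 13.7 in parental cells. Leaving out replicate 1 of S34F dox+ gave a log2 fold change of -0.26, and leaving out its replicate 2 gave -0.68. MKNK2 was at 32.7 and 37.7 FPKM in S34F dox+ and at 32.8 and 27.5 in WT dox+, which overlap (log2 fold change 0.22, from 0.09 to 0.34 as each dox+ library was left out, adjusted p = 0.846 from limma). FAXDC2 had the largest positive value after IL32, 0.5 (6.37 and 8.63 FPKM against 6.22 and 3.94, adjusted p = 0.755 from limma), without overlap between the groups. Leaving out replicate 2 of WT dox+ gave 0.22 for FAXDC2, leaving out its replicate 1 gave 0.77, and leaving out replicate 2 of S34F dox+ gave 0.3. BTN3A1 followed with 0.4 (17.8 and 15.8 against 13.2 and 11.8, adjusted p = 0.736 from limma), also without overlap. With 2 libraries in each group, overlap or its absence says little about a single gene. The share of all genes without overlap was not counted. HINFP was at 15.9 and 17.4 FPKM in S34F dox+ and 16.9 and 16.2 in WT dox+, SRSF7 at 79.3 and 74.2 against 73.8 and 86.3, MDC1 at 14.9 and 17.2 against 15.8 and 14.9, and ZNF513 at 2.28 and 2.63 against 2.5 and 1.95. In these 4 genes the groups overlapped.

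**Figure D5:**
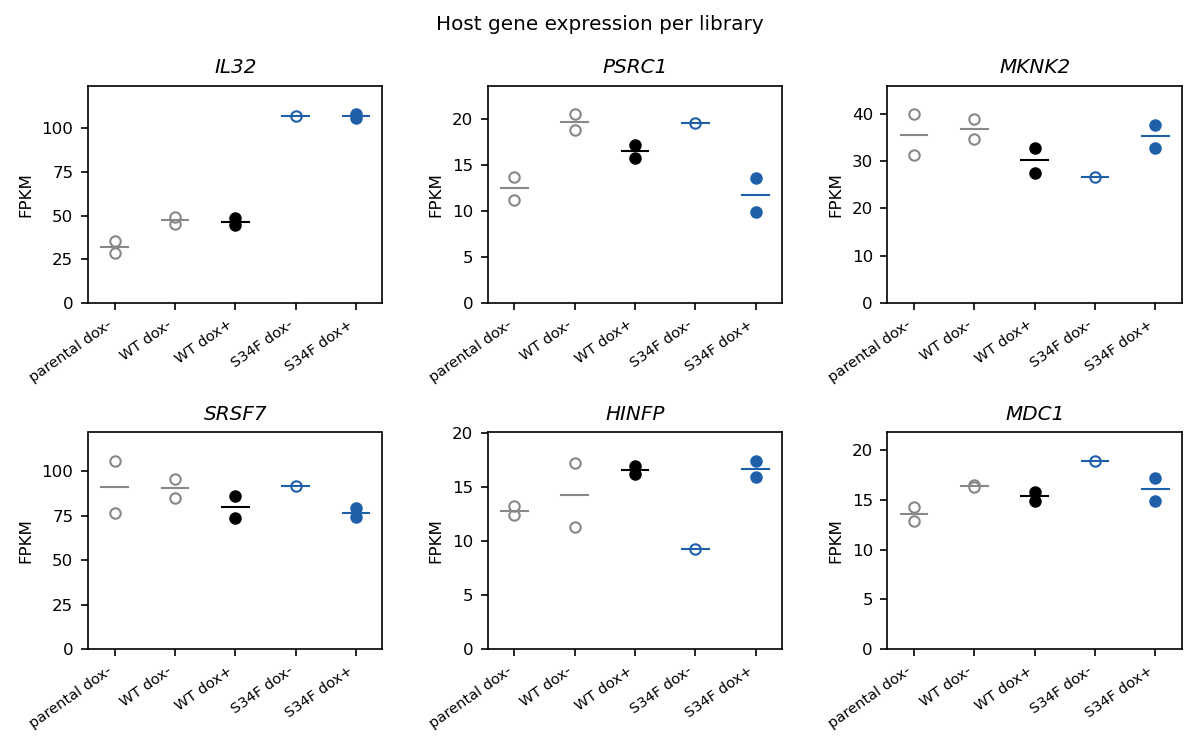
FPKM per library (points) and group mean (lines) of 6 host genes of called far pairs, by group, with filled points for doxycycline. IL32 is at 106 to 108 in the 3 S34F libraries and at 28.6 to 49.4 in the other 6, whereas the dox+ groups overlap for MKNK2, SRSF7, HINFP and MDC1.

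The libraries showed epithelial lung markers, with EPCAM at 407 to 545 FPKM, KRT7 at 2870 to 4200 and NKX2-1 at 49 to 67.8, and ROS1 at 8.63 to 37.8. NAPSA, another marker of lung adenocarcinoma, was low, at 1.73 to 9.97 FPKM. LYZ, a myeloid marker, was at 0.02 to 0.65 FPKM and CD3E, a T cell marker, at 0 to 1.67. PTPRC, a leukocyte marker, was at 0 to 2.71 and COL1A1, a fibroblast marker, at 2.83 to 7. The number of genes at 1 FPKM or more was 20896 in S34F dox+ replicate 2 and 13661 to 17716 in the other 8 libraries.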

How the data were processed

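Total RNA was sequenced in paired-end reads, which the authors trimmed, aligned with STAR 2.3.0 and summarized per gene with RSEM 1.2.29 as the deposited FPKM and TPM values. The submitters' processing notes name GRCh37 and hg19 for these libraries, and coordinates are on that build, given as the exon bases at the junctions. The authors deposited MISO results as PSI, a fraction, the Bayes factor, a ratio of evidence, and read counts per side, 1 comparison without replicates. How replicates were combined is not given in the sources used here.

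Junction names were parsed with Python 3.11.15 and pandas 2.3.3, and differences in PSI were computed as S34F minus wild-type. The authors' own difference columns were not used. Genes on the other strand in a RefSeq GRCh38 table were dropped from a pair's label. Genes without a strand there were kept, so a shared label can hold a gene that does not carry the pair. Expression was fitted with limma 3.58.1 in R 4.3.3 on log2(FPKM + 1), for genes averaging 1 FPKM or more, with the 5 groups in a single fit and two-sided tests, and the fit was tested on simulated data. FPKM was tested because counts per gene were not used here, so depth per library is unknown. Where a name had several entries, the highest was used.

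The pairs named are the 12 called with the largest difference in each direction (1 per gene), IL32, called pairs in listed genes and those nearest the distance limit. Others are named as members. The members, gene lists and rules were chosen with earlier results of these data known. Alternatives covered thresholds, reads, distance, pseudocount, filters, scaling, a replicate block and left-out libraries. Acceptor sequences, entries with more than 2 junctions and iCLIP were not analysed here.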

Additional observations from a re-analysis of the deposited data

How the results depend on the processing

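Of the 54 called far pairs, 25 were more proximal and 29 more distal in S34F. Raising the Bayes factor to 10 left 15 and 13, raising it to 20 left 10 and 10, and counts were 13 and 13 for distances above 100 nt. Without a Bayes factor, 541 of the 2563 pairs with at least 100 reads in each condition differed by at least 0.10, 255 more proximal and 286 more distal. Under the other 8 alternatives the proximal count was 21 to 27 and the distal count 24 to 31. Counting 1 event per acceptor pair, chosen after seeing the data, gave 24 and 29. Of the 27 named called pairs, 14 remained called when the Bayes factor was raised to 10 and 10 when raised to 20.

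For the 8 genes called between S34F dox+ and WT dox+, the count was 4 with a pseudocount of 0.1, 3 with no minimum FPKM, 5 with the replicate block and 0 in the 4 dox+ libraries alone (with 539 and 384 genes, higher and lower, below 0.05 in limma before adjustment). It ranged from 1 to 29 as each dox+ library was left out, with the lone library of a group assumed to vary like the others. It was 29 without S34F dox+ replicate 1, 12 without S34F dox+ replicate 2, 13 without WT dox+ replicate 1 and 1 without WT dox+ replicate 2. TPM, chosen after seeing the data, gave 6. With the replicate block the adjusted p of IL32 was 0.0615 from limma, and no other host gene call changed. Same-numbered libraries of the dox+ groups did not deviate together (r = 0.037 across genes), and the numbers pair the samples only by name. TPM moved the median log2 fold change of all genes from 0.029 to -0.074.

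PSI has no replicate spread, so leaving out a library could not be tried for the splicing calls. The acceptor trinucleotides were not run, since no genome of the coordinates' build was used here. Pairs with few reads can hide large differences, and a pair that was not called is not shown to be unchanged.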
